A study of Homo sapiens with 8 samples.

Results

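The mRNAs of 9 genes of ferritin and iron handling were examined in MOLM-13 cells, a human acute myeloid leukemia line of monocytic type that carries a KMT2A fusion. The genes were the ferritin subunits FTH1 and FTL, the transferrin receptor TFRC, heme oxygenase HMOX1, the iron regulatory proteins IREB2 and ACO1, the ferritin cargo receptor NCOA4, and the iron chaperones PCBP1 and PCBP2. They were chosen by name. A transcript was taken as a member where its Ensembl identifier belonged to a listed gene in GENCODE version 44, which gave 9 of 62639 genes and 105 of 254070 transcripts. All 8 libraries came from cells with a lentiviral, doxycycline (dox) inducible shRNA, and all had 9 days of dox. In 4 libraries the shRNA was directed against the splicing factor PTBP1 (shPTBP1, genotype PTBP1 KD), and in the other 4 it was a scrambled sequence (shSCR, labelled shControl). The constructs also expressed mCherry at all times and ΔLNGFR together with the shRNA. With a single shRNA on each side, the loss of PTBP1 and any other effect of that shRNA cannot be told apart. The replicates are called biological in the labels. The question put to these libraries was whether the loss of PTBP1 changed the amount or the isoforms of mRNAs in leukemia cells.

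Each library held between 1528449 and 1613342 counts of nanopore PCR-cDNA reads assigned to annotated transcripts. PTBP1 had 10 to 23 counts in the shPTBP1 libraries and 64 to 90 in the shSCR libraries, while its paralog PTBP2 had 185 to 199 and 1 to 4. All 12 markers of a monocytic leukemia with a KMT2A fusion had counts, although SPI1 had 1 over all libraries and 8 of the 12 passed the filter on low counts, with a summed level of 857 to 1011 normalized CPM (counts scaled to the size of the library) in shPTBP1 and 847 to 969 in shSCR. The groups did not overlap for 3 of the 12: CD33 was at 78.0 to 102 CPM in shPTBP1 and 67.4 to 75.8 in shSCR, the monocyte growth factor receptor CSF1R at 5.76 to 9.49 and 12.8 to 17.8, and the receptor kinase FLT3 at 1.92 to 3.95 and 4.00 to 7.37. FLT3 rests on 53 counts over all libraries, did not pass the filter, and its groups nearly touched. Among all tested genes the groups did not overlap for 12.7%. Of the 8 tested markers CSF1R alone was called (log2 fold change -0.97, edgeR adjusted p = 0.0375). Of all tested genes, 3.19% were called lower and 2.36% higher. The part of these markers in the results on iron genes was not tested. The 10 erythroid markers, whose cells use most iron for hemoglobin, summed to at most 0.661 CPM in shPTBP1 and 0.667 in shSCR, and 8 of them, including HBB and ALAS2, had no count. Markers of iron-recycling macrophages summed to at most 1.98 and 1.27 CPM, and those of T and B cells to at most 1.32 and 1.33. In bulk RNA, fewer cells of a type and less RNA per cell cannot be told apart.

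Cells store iron inside ferritin, a hollow shell built from H subunits (FTH1), which oxidize iron, and L subunits (FTL), which help to form the mineral core. Iron enters bound to transferrin through TFRC and is also freed from heme by HMOX1. When iron is scarce, the iron regulatory proteins encoded by ACO1 and IREB2 bind a short hairpin, the iron-responsive element (IRE). An IRE in the 5′ UTR blocks translation of the ferritin mRNAs, whereas IREs in the 3′ UTR of the TFRC mRNA protect it from decay. NCOA4 brings ferritin to the lysosome so that its iron can be released, and PCBP1 and PCBP2 carry iron to ferritin and to other iron proteins. Much of this control acts on translation and on protein, which these libraries do not measure.

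The IREs are shown because they tie FTH1, FTL and TFRC to the same regulators. In the GENCODE version 44 transcript sequences, a hairpin of the form C, any 5 bases, CAGTGN and any 5 bases was searched, with all 5 bases of the upper stem paired (GT pairs allowed). All 6 FTH1 transcripts with a count held 1 such hairpin, at chr11:61967573-61967602 on the minus strand, and the single FTL transcript held 1 at chr19:48965335-48965364 on the plus strand, both in the 5′ UTR. TFRC held 4 in the 3′ UTR of its main transcript, on the minus strand of chromosome 3, found in 13 of 15 TFRC transcripts with a count. The capitals mark the 6 bases of the loop, and positions are on GRCh38.
FTH1 5′ IRE: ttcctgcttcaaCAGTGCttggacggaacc
FTL 5′ IRE: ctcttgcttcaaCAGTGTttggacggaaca
TFRC 3′ IRE, chr3:196050978-196051007: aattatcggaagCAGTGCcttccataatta
TFRC 3′ IRE, chr3:196050574-196050603: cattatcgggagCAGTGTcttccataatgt
TFRC 3′ IRE, chr3:196050509-196050538: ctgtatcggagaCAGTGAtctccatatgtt
TFRC 3′ IRE, chr3:196050462-196050491: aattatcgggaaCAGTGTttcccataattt
No transcript with a count of the other 6 genes held these letters. The search says nothing about looser forms of the hairpin in any of the genes, so the 4 of TFRC need not be all that it has.

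Between shPTBP1 and shSCR, the mRNAs of the ferritin subunits moved in opposite directions. FTH1 fell by 50.5% and FTL rose by 20.2%, while none of the other 5 genes that could be tested passed the threshold. Of the 9 genes, 7 passed the filter on low counts (filterByExpr of edgeR with its default minimum count of 10), and HMOX1 and ACO1 did not. In edgeR's quasi-likelihood test, with p-values adjusted by Benjamini-Hochberg over 7597 genes, 1 of the 7 was called lower and 1 higher at an adjusted p under 0.05, against 3.19% of all tested genes called lower and 2.36% called higher. The fitted log2 fold change was negative for 6 of the 7 genes, with a median of -0.25, beside -0.00014 over all genes tested. The levels of 2 of the 7, FTH1 and FTL, did not overlap between the groups, as was so for 12.7% of all tested genes.

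**Figure D1:**
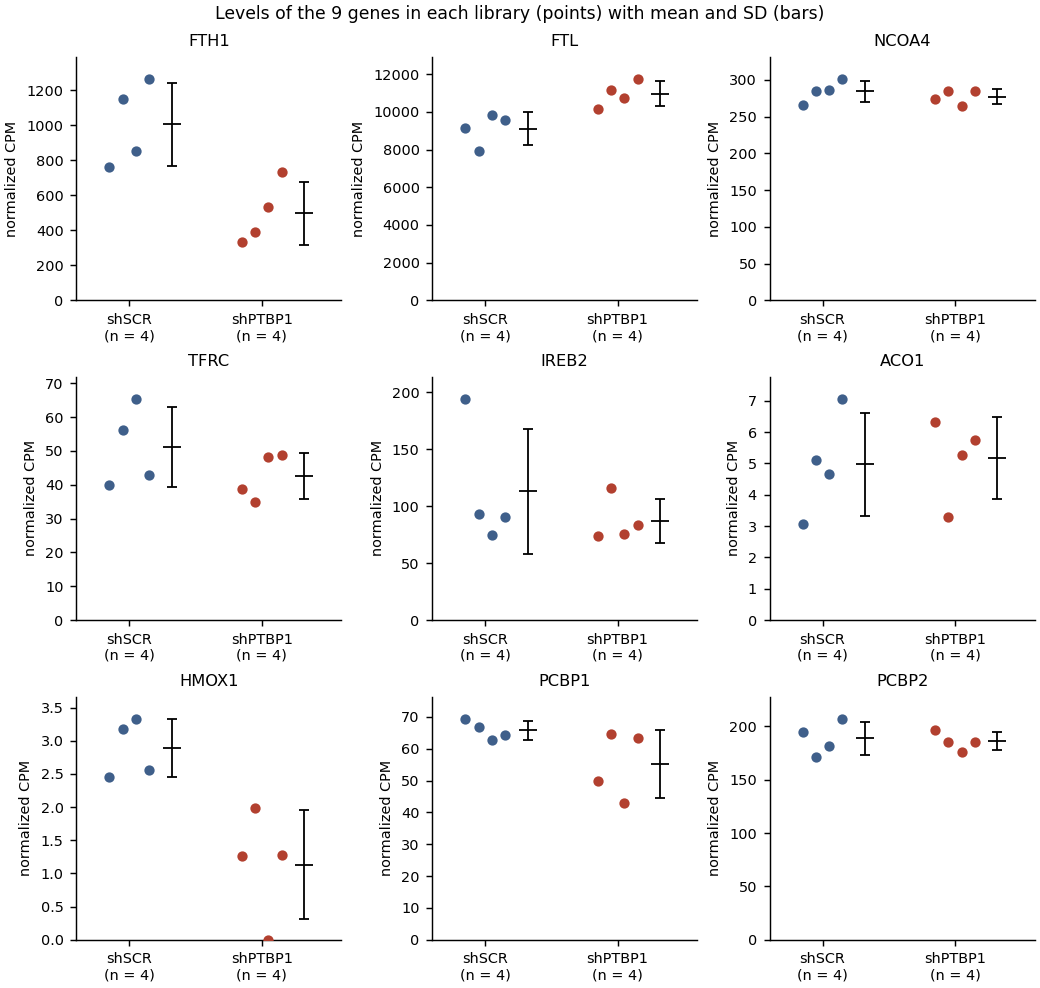
Normalized CPM (y axis, from 0) of each of the 9 genes in the 4 shSCR (blue) and 4 shPTBP1 (red) libraries, 1 point per library, with the mean and SD of each group as bars. FTH1 points lie at 333 to 735 in shPTBP1 and 760 to 1263 in shSCR, FTL points at 10158 to 11740 and 7907 to 9839, and the single high IREB2 point of 194 is shSCR replicate 1.

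FTH1 (ENSG00000167996, chr11:61959718-61967634, minus strand) encodes the H subunit with the ferroxidase activity. In shPTBP1 it stood at 333, 391, 531 and 735 normalized CPM in replicates 1 to 4, and in shSCR at 760, 1148, 851 and 1263. Every shPTBP1 library lay below every shSCR library, but the highest of the first group and the lowest of the second were close to each other. The means were 498 ± 179 and 1006 ± 239 (SD, n = 4 each), and the log2 fold change was -1.01 (edgeR adjusted p = 0.0152, SE 0.21). An exact two-sided permutation test of the means gave p = 0.0286, the smallest that 4 against 4 libraries allow. The call did not hold in every subset of libraries: without shPTBP1 replicate 2, shPTBP1 replicate 3 or shSCR replicate 4, the edgeR adjusted p was 0.059, 0.0512 and 0.0544, with log2 fold changes of -0.92, -1.04 and -0.89.

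FTL (ENSG00000087086, chr19:48965309-48966879, plus strand) encodes the L subunit and had a single annotated transcript, FTL-201. In shPTBP1 it stood at 10158, 11186, 10763 and 11740 normalized CPM in replicates 1 to 4, and in shSCR at 9165, 7907, 9839 and 9567. All shPTBP1 libraries were above all shSCR libraries, with means of 10962 ± 669 and 9119 ± 854. The log2 fold change was 0.27 (edgeR adjusted p = 0.0373, SE 0.07), and the exact permutation test gave p = 0.0286. This small rise was less firm than the fall of FTH1. It passed the threshold in only 2 of the 8 fits that left out a library, those without shPTBP1 replicate 1 and without shSCR replicate 3, and the adjusted p was 0.101, 0.0987 and 0.129 without shPTBP1 replicate 2, 3 and 4, and 0.0728, 0.0598 and 0.0635 without shSCR replicate 1, 2 and 4. FTL-201 was the transcript with the fifth highest count of all, and FTH1 and FTL together held 0.927% to 1.21% of the counts of a library.

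The balance of the ferritin mRNA counts can be read within each library, where it does not depend on the normalization between libraries. It is not a balance of protein subunits. Transcripts annotated as targets of nonsense-mediated decay held 94.1% of FTH1 counts in shPTBP1 and 94.4% in shSCR, and none of the FTL counts. Whether the filter on mapping quality removed reads of the 2 genes unequally was not tested. For every 100 FTL counts there were 3.28, 3.50, 4.94 and 6.26 FTH1 counts in the shPTBP1 libraries, and 8.29, 14.5, 8.65 and 13.2 in the shSCR libraries. The groups did not overlap, and the means were 4.49 ± 1.39 and 11.2 ± 3.16. The log2 ratio was lower by 1.32 in shPTBP1 (difference -1.32, exact permutation p = 0.0286). Adjusted by Benjamini-Hochberg over the 3 ratios compared, p was 0.0857 and did not pass 0.05. With 4 libraries against 4, a single ratio among 3 could not have gone lower.

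**Figure D2:**
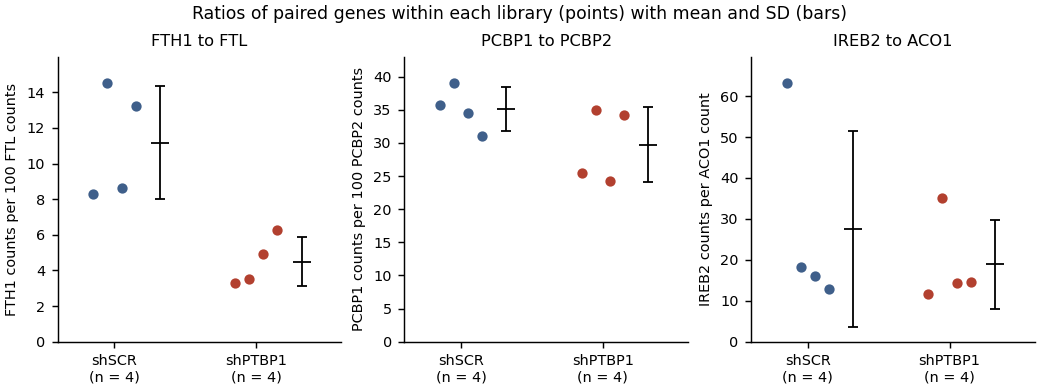
Counts of FTH1 per 100 counts of FTL, of PCBP1 per 100 of PCBP2, and of IREB2 per count of ACO1 (y axes, from 0) in each of the 4 shSCR (blue) and 4 shPTBP1 (red) libraries, with mean and SD. The FTH1 to FTL ratio lies at 3.28 to 6.26 in shPTBP1 and 8.29 to 14.5 in shSCR, while the other ratios overlap between the groups.

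The genes whose pattern over the 8 libraries was most like that of FTH1 were RPS2, a protein of the small ribosomal subunit, INSIG1, a sterol sensor of the endoplasmic reticulum, and HMGN1, a nucleosome-binding protein. Likeness was the root mean square difference of mean-centred log2 CPM, which was 0.141, 0.164 and 0.168, beside a root mean square of 0.645 for FTH1 itself. RPS2 stood at 34.6 ± 16.7 normalized CPM in shPTBP1 and 64.8 ± 13.8 in shSCR. INSIG1 was at 13.9 ± 3.90 and 32.1 ± 9.29, and HMGN1 at 180 ± 44.3 and 403 ± 139. INSIG1 and HMGN1 were called lower (edgeR adjusted p = 0.0152 and 0.00928), while RPS2 was not (edgeR adjusted p = 0.0627). Likeness was taken over the same 8 libraries and includes the difference between the groups. Low p-values were therefore largely set by the choice of genes and carry no further evidence. FTH1, RPS2 and HMGN1 have many processed copies in the genome, with 25, 25 and 32 pseudogenes named after them in GENCODE, whereas INSIG1 has none. For FTL, with 16, the most similar genes were RPS7 (15 named pseudogenes), the acetyltransferase subunit NAA25 (0) and the complex I subunit NDUFB8 (2), at 0.0368, 0.0457 and 0.0497 beside 0.168 for FTL itself. NDUFB8 was called higher (edgeR adjusted p = 0.0453), while RPS7 and NAA25 were not (edgeR adjusted p = 0.144 and 0.466), with the same limit.

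The authors kept only reads with a mapping quality above 50, a measure that is lower where a read fits several places. Of the 47 genes in a list of ferritin-like genes and pseudogenes named after FTH1, FTL, PCBP1 or PCBP2, none passed the filter, and together they held 1 count, of FTLP3 in an shSCR library. When the 28 member transcripts with at least 8 counts and their last 500 bases were aligned to GRCh38 with minimap2, all 56 sequences fell in their own gene with mapping qualities of 56 to 60. These are error-free sequences, so how many reads with errors were lost was not tested. Among the 102 tested genes with 10 or more named pseudogenes, a cut chosen after the values were seen, 4 were called lower (3.92%) and 8 higher (7.84%), with a median log2 fold change of 0.10. Of all tested genes, 3.19% were called lower and 2.36% higher, and of those with no named pseudogene 3.00% and 2.11%. The cause of the larger share called higher was not tested.

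The isoform shares of FTH1 did not pass the test of usage. FTH1-208, which GENCODE annotates as a target of nonsense-mediated decay, held 93.9% ± 0.611 of FTH1 counts in shPTBP1 and 94.1% ± 0.942 in shSCR (SD, n = 4), and the coding transcript FTH1-201 held 4.59% ± 0.69 and 4.96% ± 0.725. Both fell, FTH1-208 by a log2 fold change of -1.03 (edgeR adjusted p = 0.0137, SE 0.22 over 10207 transcripts) and FTH1-201 by -1.08 (SE 0.23, adjusted p = 0.0156). In the usage test (diffSpliceDGE of edgeR) the adjusted p was 1 for each.

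These transcripts share 1 of 4 exons exactly and differ at both ends and at the exon 3 acceptor, which is printed because they hold most FTH1 counts. Which of these differences assigned a read was not tested. Exon 3 of FTH1-201 covers chr11:61964987-61965112, and that of FTH1-208 begins 7 bases later, a shift that is not a multiple of a codon. FTH1-201 also ends 281 bases further downstream, and the annotated starts are 3 bases apart. The stretch chr11:61965086-61965132 on the minus strand holds 20 intron bases, the 7 bases between the acceptors in capitals, and 20 bases of the exon they share.
FTH1 exon 3 acceptors: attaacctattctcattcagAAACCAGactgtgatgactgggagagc
The counts do not say whether reads were assigned by the acceptor or by the 3′ end, so the share of FTH1-208 is a share of assigned counts and was not checked against reads.

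NCOA4 (ENSG00000266412, chr10:46005088-46030623, minus strand) encodes the receptor that carries ferritin to the lysosome. The gene as a whole stood at 273, 285, 265 and 285 normalized CPM in shPTBP1 and at 265, 285, 286 and 301 in shSCR, with overlapping groups and a log2 fold change of -0.04 (edgeR adjusted p = 0.817, SE 0.06). A minor isoform of the gene, however, fell. NCOA4-207 had 4, 3, 3 and 6 counts in the shPTBP1 libraries and 20, 24, 24 and 25 in the shSCR libraries. The groups were far apart, at 2.58 ± 0.879 and 14.9 ± 1.78 normalized CPM, with a log2 fold change of -2.49 (edgeR adjusted p = 0.000254, SE 0.29), which is 5.63-fold lower in shPTBP1.

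NCOA4-207 held 0.926%, 0.694%, 0.746% and 1.35% of NCOA4 counts in shPTBP1 and 4.63%, 5.36%, 5.59% and 5.33% in shSCR. The means were 0.929% ± 0.297 and 5.23% ± 0.416 (exact permutation p = 0.0286). In the test of isoform usage its difference from the rest of the gene was -1.70 on the natural log scale (diffSpliceDGE, adjusted p = 4.64e-07). The main isoform NCOA4-204 held 99.0% ± 0.318 and 94.6% ± 0.406, and its level did not pass the test (log2 fold change 0.02 with SE 0.06, edgeR adjusted p = 0.905). NCOA4-207 passed the tests of level and of usage in every alternative run, including each fit without a library.

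NCOA4-207 and NCOA4-204 share 9 of their 10 exons and the same annotated coding ends, and differ by the first exon. The counts do not say how reads that lack the first exon were assigned. The fall of NCOA4-207 is therefore one of assigned counts and was not checked against reads. That of NCOA4-204 covers chr10:46030526-46030623 (98 bases) and that of NCOA4-207 chr10:46023330-46023455 (126 bases), so that their starts lie 7168 bases apart. The 250 bases before each start are shown because the annotated start is what sets these isoforms apart. Both are on the minus strand of GRCh38, read 5′ to 3′. The first, chr10:46030624-46030873, is also a promoter window of RefSeq, whereas the second, chr10:46023456-46023705, is not among the 2 RefSeq windows of NCOA4. Capitals mark GGGCGG, the GC box, on either strand.
NCOA4-204: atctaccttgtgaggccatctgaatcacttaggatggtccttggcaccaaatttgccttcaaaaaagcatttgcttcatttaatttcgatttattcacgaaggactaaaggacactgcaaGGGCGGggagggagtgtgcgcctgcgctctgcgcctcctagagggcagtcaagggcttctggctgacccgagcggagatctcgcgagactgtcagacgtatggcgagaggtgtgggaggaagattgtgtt
NCOA4-207: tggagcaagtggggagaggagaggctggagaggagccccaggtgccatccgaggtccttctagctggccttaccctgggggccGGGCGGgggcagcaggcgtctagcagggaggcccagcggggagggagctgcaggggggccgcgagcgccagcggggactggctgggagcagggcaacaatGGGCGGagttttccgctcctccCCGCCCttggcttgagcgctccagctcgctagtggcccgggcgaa
The GC box occurred 1 time before NCOA4-204 and 3 times before NCOA4-207, and 42.6% of the 35116 RefSeq promoter windows held it at least once in the same 250 bases. The core letters of the RUNX site, TGTGGT on either strand, were in neither window and in 10.98% of all windows. The GC content was 52.0% and 71.2%, beside a median of 58.0%, and the CpG count 12 and 16, beside 11. Such matches describe the letters only.

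**Figure D3:**
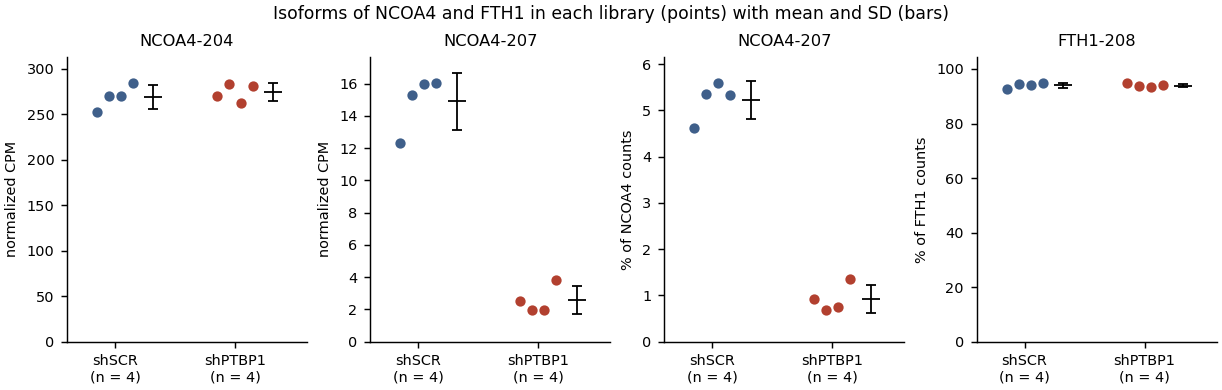
Normalized CPM of NCOA4-204 and NCOA4-207, the share of NCOA4-207 in NCOA4 counts and the share of FTH1-208 in FTH1 counts (y axes, from 0) in the 4 shSCR (blue) and 4 shPTBP1 (red) libraries, with mean and SD. NCOA4-207 lies at 1.98 to 3.84 CPM in shPTBP1 and 12.3 to 16.0 in shSCR, while NCOA4-204 and the FTH1-208 share overlap between the groups.

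Over all 9 genes, 50 of the 105 listed transcripts had a count, and 15 passed the filter. Of these 15, 3 were called lower (NCOA4-207, FTH1-208 and FTH1-201) and 1 higher (FTL-201, log2 fold change 0.26, edgeR adjusted p = 0.0358), where 3.00% of all tested transcripts were called lower and 2.45% higher. FTH1-208 and FTH1-201 belong to the same gene and are not independent. Without shPTBP1 replicate 2 or without shSCR replicate 4, only NCOA4-207 of these 4 was called. Isoform usage could be tested for 11 isoforms of 3 genes, FTH1, NCOA4 and PCBP2. At an adjusted p under 0.05 only NCOA4-207 passed, beside 1.78% of all 5464 isoforms tested. With the further demand that the mean share change by at least 10 points, none of the 11 was called by diffSpliceDGE, since the share of NCOA4-207 changed by -4.30 points, and 1.12% of all isoforms were. In that test 1 of the 11 had an unadjusted p under 0.05. The demand on the share does not depend on the test, so diffSplice of limma could only call 0 as well. Without the demand, the usage of NCOA4-207 had an adjusted p of at most 5.65e-05 in the 3 alternative usage fits, diffSplice of limma among them.

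TFRC (ENSG00000072274, chr3:196012511-196082153, minus strand) brings transferrin-bound iron into the cell. It had 61, 53, 73 and 76 counts in shPTBP1 and 65, 88, 98 and 67 in shSCR. The groups overlapped, at 42.6 ± 6.83 and 51.1 ± 11.8 normalized CPM, and the log2 fold change was -0.26 (edgeR adjusted p = 0.443, SE 0.17). The main coding transcript TFRC-201 held 89.4% ± 3.22 and 91.95% ± 5.53 of its counts. Its next transcript by count, TFRC-227, which lacks exons of 202 and 196 bases, had 7 counts in all in shPTBP1 and 11 in shSCR.

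HMOX1 (ENSG00000100292, chr22:35380361-35394214, plus strand) cleaves heme and is a classic target of the transcription factor NFE2L2 and its repressor BACH1. It was almost silent, with 2, 3, 0 and 2 counts in shPTBP1 and 4, 5, 5 and 4 in shSCR. Every shPTBP1 library lay below every shSCR library, but the gene did not pass the filter and has no test in the fit over all genes. A count of 0 at this depth allows up to 3 counts, or 1.91 CPM in that library, so no fold is given.

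The iron regulatory proteins showed no change past the threshold. IREB2 (ENSG00000136381, chr15:78437431-78501453, plus strand), which encodes IRP2, had 116, 175, 115 and 131 counts in shPTBP1 and 316, 146, 112 and 141 in shSCR. A single library, shSCR replicate 1, stood at 194 normalized CPM, above the 74.7 to 92.96 of its group. The log2 fold change was -0.38 (edgeR adjusted p = 0.451, SE 0.25) and became 0.016 without that library. ACO1 (ENSG00000122729, chr9:32384603-32454769, plus strand), which encodes IRP1, had 10, 5, 8 and 9 counts in shPTBP1 and 5, 8, 7 and 11 in shSCR, and it was not tested. For each ACO1 count there were 11.6 to 35.0 IREB2 counts in shPTBP1 and 12.8 to 63.2 in shSCR (log2 difference of the ratio -0.36, exact permutation p = 0.543, also after adjustment over the 3 ratios).

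The iron chaperones did not pass either. PCBP1 (ENSG00000169564, chr2:70087477-70089203, plus strand), a gene without introns, had 79, 98, 65 and 99 counts in shPTBP1 and 113, 105, 94 and 100 in shSCR. The groups overlapped, at 55.2 ± 10.6 and 65.8 ± 2.98 normalized CPM, and the log2 fold change was -0.25 (edgeR adjusted p = 0.313, SE 0.13). PCBP2 (ENSG00000197111, chr12:53452102-53481162, plus strand) had 311, 280, 268 and 290 counts in shPTBP1 and 317, 269, 272 and 323 in shSCR. Its means of 186 ± 8.34 and 189 ± 15.7 normalized CPM overlapped in range (log2 fold change -0.02, SE 0.08, adjusted p = 0.923). The ratio of PCBP1 to PCBP2 was 29.7% ± 5.65 in shPTBP1 and 35.05% ± 3.33 in shSCR (log2 difference -0.25, exact permutation p = 0.171, 0.257 adjusted over the 3 ratios).

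PCBP2 had the most varied isoforms of the 9 genes, with 7 transcripts tested and none called. PCBP2-202 held 44.2% ± 2.27 of its counts in shPTBP1 and 47.3% ± 3.11 in shSCR, PCBP2-201 21.3% ± 3.94 and 21.3% ± 3.07, and PCBP2-222 11.2% ± 3.07 and 8.34% ± 0.645. The share of PCBP2-222 had an exact permutation p of 0.0286, but the usage test over all isoforms gave an adjusted p of 0.912. PCBP2-202 includes an exon of 93 bases at chr12:53464760-53464852. Over the transcripts that span it, a measure chosen after the values were seen, the exon was in 64.0% ± 3.08 of counts in shPTBP1 and 63.6% ± 3.08 in shSCR (exact permutation p = 0.914). The remaining tested isoforms, PCBP2-209, PCBP2-213, PCBP2-215 and PCBP2-223, each held between 3.31% and 4.64% of counts on average in either group.

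Per kilobase of transcript, the order of the 9 genes was led by FTL in both groups, at 10470 ± 981 normalized CPM per kb in shSCR and 12585 ± 768 in shPTBP1. FTH1 followed at 1090 ± 260 and 540 ± 194, so that FTL per kilobase was 9.6 times FTH1 in shSCR and 23.3 times in shPTBP1. Next came PCBP2 (111 and 110), NCOA4 (82.3 and 80.1), PCBP1 (38.1 and 32.0), IREB2 (18.2 and 13.8) and TFRC (10.2 and 8.53), all in normalized CPM per kb, shSCR first. Neighbours in this order did not overlap within a group except IREB2 and TFRC in shSCR. At the bottom, HMOX1 stood at 1.85 and ACO1 at 0.828 in shSCR, and ACO1 at 0.995 and HMOX1 at 0.728 in shPTBP1, where their ranges overlapped. Both rest on a few counts per library. The order depends on the division by length. In plain normalized CPM, NCOA4 (284 and 277, shSCR first) stood above PCBP2 (189 and 186) in both groups. IREB2 (113 and 87.1) likewise stood above PCBP1 (65.8 and 55.2). Which scale is nearer to numbers of molecules was not tested.

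Around these 9 genes the wider iron pathway was described by 8 lists, which held 146 genes in the table. Of the 69 genes that could be tested, 1 was called higher and 0 lower by edgeR (1.45%, beside the 2.36% and 3.19% given above for all genes). The groups did not overlap for 7 of the 69, or 10.1%, beside 12.7% of all tested genes. The median log2 fold change of the 69 was 0.0019. At an unadjusted p under 0.05 edgeR had 3 lower and 4 higher among the 69 (4.35% and 5.80%), beside 10.1% lower and 9.10% higher of all genes tested. Of these, 3 lower and 2 higher were in the list on control of the iron regulatory proteins and ferritin turnover and 2 higher in that on iron and heme transport. DESeq2 and limma-voom each called 1 higher and 0 lower after adjustment. The called gene was LAMP2, a lysosomal membrane protein needed for autophagy, from the list on control of the iron regulatory proteins and ferritin turnover. It stood at 542, 513, 548 and 563 normalized CPM in shPTBP1 and 443, 441, 475 and 418 in shSCR, with no overlap and a log2 fold change of 0.28 (edgeR adjusted p = 0.0168, SE 0.06). Without shPTBP1 replicate 3, shPTBP1 replicate 4 or shSCR replicate 4 its adjusted p was 0.0569, 0.0566 and 0.0583.

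In that list 17 of 18 tested genes did not pass, among them the lysosomal protein LAMP1 (log2 fold change 0.13, adjusted p = 0.537) and CIAO2B of the cytosolic iron-sulfur machinery (-0.10, adjusted p = 0.447). Besides LAMP2, the groups did not overlap for CTSB, MMS19, FBXL5 and TAX1BP1 of that list, which are named here after their values were seen. Over all tested genes 12.7% did not overlap, and whether the list differs from that was not tested. CTSB, a lysosomal protease, was at 264 to 292 normalized CPM in shPTBP1 and 314 to 338 in shSCR (log2 fold change -0.22, edgeR adjusted p = 0.0655), and MMS19, which helps deliver iron-sulfur clusters, at 18.4 to 22.4 and 23.1 to 33.7 (-0.58, adjusted p = 0.0692). CTSB was called lower with limma-trend and with a mean of at least 50 counts, and MMS19 without shSCR replicate 4. FBXL5, the subunit of a ubiquitin ligase that marks IRP2 for degradation when iron is plentiful, had a log2 fold change of 0.33 (edgeR adjusted p = 0.353), and the autophagy receptor TAX1BP1 had 0.15 (adjusted p = 0.231). None of the 11 tested genes of iron and heme transport passed. CYBRD1, a ferric reductase, came nearest among those named there, at 49.96 ± 5.37 and 36.9 ± 5.24 normalized CPM without overlap (log2 fold change 0.44, SE 0.13, adjusted p = 0.0795), and the heme transporter SLC48A1 had 0.09 (adjusted p = 0.815). Of other mRNAs with an IRE, none of 5 passed, with SLC11A2, the iron importer DMT1, at -0.09 (adjusted p = 0.796).

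The 12 tested genes of heme synthesis and breakdown held no call, with a median log2 fold change of -0.09. BLVRB had 0.12 (adjusted p = 0.43) and UROD 0.06 (adjusted p = 0.815). None of 15 genes of iron-sulfur cluster assembly passed (median 0.0099), with BOLA3 at 0.0035 and ISCA2 at 0.01. None of 9 genes of the NFE2L2 and BACH1 axis passed (median -0.11). TXNRD1 had 0.03 (adjusted p = 0.861), MAFG -0.50 (SE 0.35, adjusted p = 0.48), and GCLM, named after its values were seen, had -1.29 from 30 and 75 counts (SE 0.77, adjusted p = 0.393). Among other poly(C)-binding proteins HNRNPK had -0.07 (adjusted p = 0.634), and PCBP4 had 29 and 28 counts in all and was not tested.

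**Figure D4:**
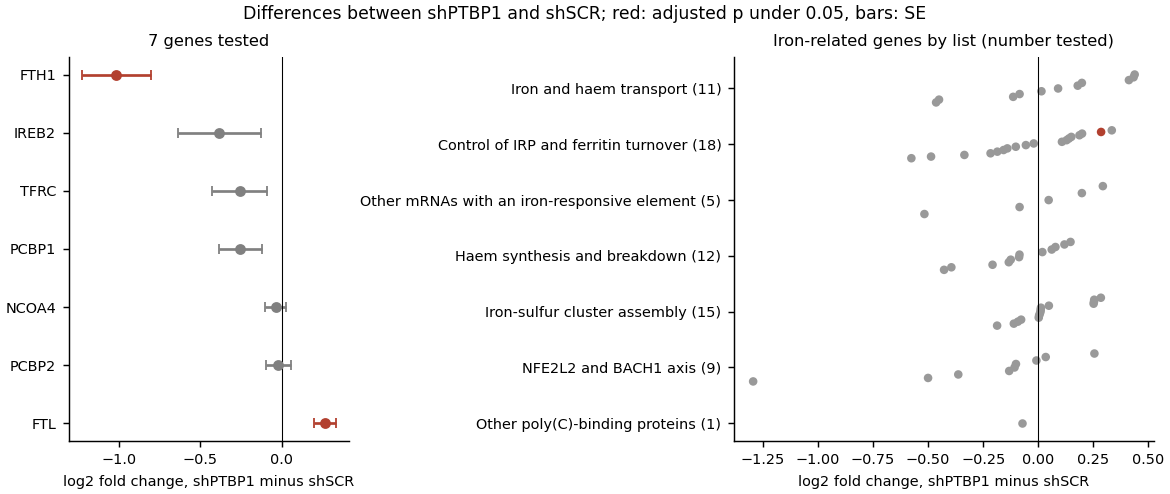
Log2 fold change of shPTBP1 minus shSCR (x axes) for the 7 tested genes, with SE as bars, and for the tested genes of each list, 1 point per gene, with the number tested in brackets (a gene in several lists is drawn in each). Red points have an edgeR adjusted p under 0.05: FTH1 at -1.01, FTL at 0.27 and LAMP2 at 0.28, and the grey point at -1.29 is GCLM.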

How the data were processed

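Nanopore PCR-cDNA libraries of MOLM-13 cells were mapped to hg38 with minimap2 by the authors, filtered on mapping quality, and counted per annotated transcript with StringTie. Versions and the annotation are not given in the sources used here. The deposited transcript counts were not normalized. A further deposited table, named TPM, holds CPM values that the authors made by dividing each count by its library total, without division by length. All columns had a sample.

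Transcripts were assigned by identifier in GENCODE version 44 (252562 of 254070 matched; the other 1508, 0.0876% to 0.115% of counts, stayed out of the tests). Counts were summed per gene, normalized by TMM, filtered with filterByExpr and tested with edgeR 4.0.16 (R 4.3.3), glmQLFit and glmQLFTest, group as the only term. Isoform usage was tested with diffSpliceDGE. Single values were compared by exact two-sided permutation tests over libraries. Ratios used a prior count of 0.5. Alternatives used DESeq2 1.42.0 and limma 3.58.1. Sequences came from GRCh38, GENCODE and RefSeq tables, which held promoter windows for 7 of the 9 genes; alignments used minimap2 2.31. Scripts were tested on simulated data.

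The libraries held 1528449 to 1613342 counts, so a count of 0 allows up to 3 counts, or 1.86 to 1.96 CPM. This covers counting error only, since PCR products are not independent molecules. Named genes were the 9 members, their transcripts with a mean of at least 10 counts in a group, list genes with an adjusted p under 0.05 plus up to 2 more per list by level, the 3 genes most like FTH1 and FTL, and PTBP1 and PTBP2. The members and lists were chosen with earlier results of these data known. Some items that the rule would name are not reported here.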

Additional observations from a re-analysis of the deposited data

Results flagged for a closer look

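Among 54 sets of 4 libraries examined for a single distant value, 2 had one, where about 1 in 20 would by chance. IREB2 in shSCR replicate 1 stood at 194 normalized CPM, while the other shSCR libraries lay between 74.7 and 92.96. The share of PCBP2-213 in shSCR replicate 1 was 5.68% of PCBP2 counts, from 18 counts, while it was 2.94% to 3.41% in the other shSCR libraries. Both values come from the same library.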

How the results depend on the processing

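The fall of FTH1 and of NCOA4-207 kept its direction in every alternative run. FTH1 had an adjusted p under 0.05 with DESeq2, limma-voom, limma-trend, other size factors, both filters and the replicate block. Among the alternatives run, FTL lost its call with the block and without single libraries, as given in the report.

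The replicate numbers did not pair the libraries: the correlation of deviations between libraries of the same number was between -0.0328 and 0.00889. With the replicate block, 323 genes were called in place of 421, 1 member gene (FTH1, log2 fold change -1.04, adjusted p = 0.00231) in place of 2, and FTL had 0.27 (adjusted p = 0.0596). The paired sign-flip test of the ratios gave an adjusted p of 0.375 for FTH1 to FTL, which 4 pairs could not bring under 0.05. No other call named here except that of FTL-201 (adjusted p = 0.0667) changed.

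DESeq2 called 157 genes lower, against 242. The list genes called were 2 in place of 1 with limma-trend, with no filter and with a mean of at least 50 counts. Besides LAMP2 this was CTSB with limma-trend (log2 fold change -0.25, adjusted p = 0.0393) and at 50 counts (-0.23, adjusted p = 0.0179), and MAP1LC3B with no filter (-2.06, adjusted p = 0.0358, from 9 and 40 counts). With protein-coding transcripts alone GLRX5 was called too (0.39, adjusted p = 0.0169). All were named after their values were seen. In the main fit GLRX5 had the opposite sign (-0.08, edgeR adjusted p = 0.909). There shSCR replicate 2 stood at 174 normalized CPM, and shSCR replicates 1, 3 and 4 at 68.8, 74.7 and 71.9. Without each library in turn, the genes called were 184 to 358, the member genes called 0 to 2, the list genes called 0 to 1 and the member transcripts called 1 to 4. The log2 fold change of FTH1 was then -1.27 to -0.86, that of FTL 0.20 to 0.30, that of PCBP2 -0.064 to 0.028, changing sign, and that of IREB2 -0.55 to 0.016, changing sign without shSCR replicate 1. The log2 ratio of IREB2 to ACO1 was -0.69 to 0.13, changing sign without the same library. With 4 libraries against 3, the exact test of a ratio could not pass after adjustment. The fits without a library rest on fewer samples, and the cause of the other differences was not tested.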
